A study of Mus musculus with 2 samples.

Results

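The genes described here are 10 markers of the stem cells at the base of the intestinal crypt, taken by name from the 45706 gene IDs of the count files: Lgr5, Tnfrsf19, Prom1, Olfm4, Smoc2, Igfbp4, Gkn3, Ascl2, Cdca7 and Msi1. All 10 were found, and all 10 were among the 12026 measured genes, a term used for genes whose level averaged 1 CPM or more (CPM being counts in 1000000 counts of a library) and whose counts summed to 20 or more. RNA sequencing was done on intestinal stem cells of high GFP from Lgr5-EGFP-IRES-creERT2 mice aged 4 months. 1 library came from fasted mice and 1 from mice with free access to standard chow, and both shared the reporter allele, the age and the gate. How long the fast lasted, the sex and number of the mice, and whether the mice carried 1 or more copies of the reporter allele are not stated in the labels. In this line, as it is known, the cassette sits at the start of the Lgr5 coding sequence, so that an allele carrying it makes GFP and the inducible Cre in place of Lgr5, and only part of the crypts express it. GFP thus chose the cells through the Lgr5 locus, and the Lgr5 level is no independent check of the sort.

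Crypt-base columnar cells are slender dividing cells that sit between Paneth cells and renew the whole intestinal epithelium. WNT signals from the niche, strengthened by R-spondins that bind LGR receptors, keep them in the stem cell state, and daughters that leave the base lose the markers as they become transit-amplifying and then absorptive or secretory cells. The markers have unlike roles, as receptors and membrane proteins, as secreted proteins, and as regulators in the nucleus or on RNA, and some of them are also found above the crypt base.

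Most of the 10 markers had somewhat lower levels in the fasted library, and the differences were unequal. Olfm4 stood at 0.583 times its fed level, Lgr5 at 0.714 times, and Msi1, Tnfrsf19 and Prom1 at 0.757, 0.768 and 0.805 times. Smoc2, Cdca7 and Gkn3 lay within a narrow band at 0.894, 0.901 and 0.979 times, while Ascl2 stood at 1.08 times and Igfbp4 at 1.25 times. As a group, 8 of 10 had a negative log2 ratio of fasted over fed, with a median of -0.24, against -0.02 over all measured genes, of which 52.1% were negative. Counts were divided by a size factor per library (0.842 for fasted, 1.19 for fed). None of the 10 reached a 2-fold difference with a 95% interval that excluded a ratio of 1, a threshold passed upwards by 2.51% and downwards by 1.91% of all measured genes. At 1.5-fold, 0 of 10 passed upwards, against 5.11% of all measured genes, and 1 of 10, Olfm4, passed downwards, against 5.05%. No test was possible with a single library in each group, so that the intervals cover counting error only and the differences have no replicate check. In bulk RNA, fewer cells that express a marker and less of its RNA per cell cannot be told apart.

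The promoters at both ends of this range, those of Olfm4 and Igfbp4, are shown together with that of Ascl2, because Ascl2 belongs to the basic helix-loop-helix factors, which bind E-boxes. Each runs from 250 bases before to 50 bases after the transcript start in RefSeq (GRCm38.p6), 5′ to 3′ on the gene's strand, with matches to the E-box CANNTG in capitals. The Olfm4 window is chr14:80000052-80000351 (+), the Igfbp4 window chr11:99040994-99041293 (+) and the Ascl2 window chr7:142969215-142969514 (-).
Olfm4: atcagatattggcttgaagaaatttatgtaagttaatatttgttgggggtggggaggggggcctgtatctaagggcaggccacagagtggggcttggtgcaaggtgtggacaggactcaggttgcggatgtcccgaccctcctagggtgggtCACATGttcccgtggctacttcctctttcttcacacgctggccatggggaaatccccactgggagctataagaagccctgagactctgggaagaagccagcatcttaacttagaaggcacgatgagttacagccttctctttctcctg
Igfbp4: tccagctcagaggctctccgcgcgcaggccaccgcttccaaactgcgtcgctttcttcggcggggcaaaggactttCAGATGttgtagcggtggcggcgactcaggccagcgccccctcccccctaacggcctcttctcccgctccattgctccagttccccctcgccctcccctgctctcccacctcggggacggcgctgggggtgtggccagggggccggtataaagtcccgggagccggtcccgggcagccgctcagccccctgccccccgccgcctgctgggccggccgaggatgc
Ascl2: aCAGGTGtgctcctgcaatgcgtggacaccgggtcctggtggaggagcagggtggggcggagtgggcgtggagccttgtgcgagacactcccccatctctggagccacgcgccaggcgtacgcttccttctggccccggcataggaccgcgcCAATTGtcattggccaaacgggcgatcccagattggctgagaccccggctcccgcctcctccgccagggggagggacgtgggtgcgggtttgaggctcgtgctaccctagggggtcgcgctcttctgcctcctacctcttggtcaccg

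The E-box reads the same class of letters on both strands, and it was found in 72.3% of 32851 RefSeq promoter windows, so these matches are common ones. The Olfm4 window held 1 match, which begins 98 bases before the start, the Igfbp4 window held 1, at 174 bases, and the Ascl2 window held 2, at 249 and 98 bases. The windows also differ in base composition: G and C made up 52.3% of the Olfm4 window, 71.3% of the Igfbp4 window and 67.0% of the Ascl2 window, beside a median of 52.7% over all windows. Letters of the TCF/LEF core (CTTTGA or CTTTGT, either strand), through which WNT signals act, were in none of these 3 windows and in 31.2% of all windows. Among the 9 windows listed for 7 of the markers, 3 held such letters: the Gkn3 window and the second windows of Prom1 and Tnfrsf19. A match of letters is a description of the window and no evidence of binding.

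Levels are compared between genes as CPM per kilobase of annotated exons. Olfm4 was far above the rest, with 2788 CPM per kilobase in the fasted library and 4852 in the fed library, 16.8 times and 28.3 times the next marker. By counts it ranked 4 among all genes in the fasted library and 2 in the fed library, and it alone took 0.826% of all fasted counts and 1.44% of all fed counts. Gkn3 came next with 166 CPM per kilobase in the fasted and 172 in the fed library, followed by Cdca7 with 133 and 150. A middle group of 4 genes lay close together. Igfbp4 had 94.3 CPM per kilobase in the fasted and 76.5 in the fed library, Ascl2 had 88.5 and 83.5, Smoc2 had 83.4 and 94.6, and Prom1 had 61.5 and 77.5. Lgr5 had 33.2 CPM per kilobase in the fasted and 47.2 in the fed library, Msi1 had 19.99 and 26.8, and Tnfrsf19 was lowest with 16.5 and 21.8. At this length the order was shared by both libraries except in the middle group, where Igfbp4 ranked 4 in the fasted and 7 in the fed library, Smoc2 ranked 6 and 4, and Prom1 ranked 7 and 6. Neighbours whose counting intervals overlapped were Igfbp4 and Ascl2 as well as Ascl2 and Smoc2 in the fasted library, and Ascl2 and Prom1 as well as Prom1 and Igfbp4 in the fed library. The order also depends on the length taken: with the longest transcript in place of all exons, Cdca7 stood above Gkn3 in both libraries, and Lgr5 was below Igfbp4 and Ascl2 in the fasted library but above both in the fed library.

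**Figure D1:**
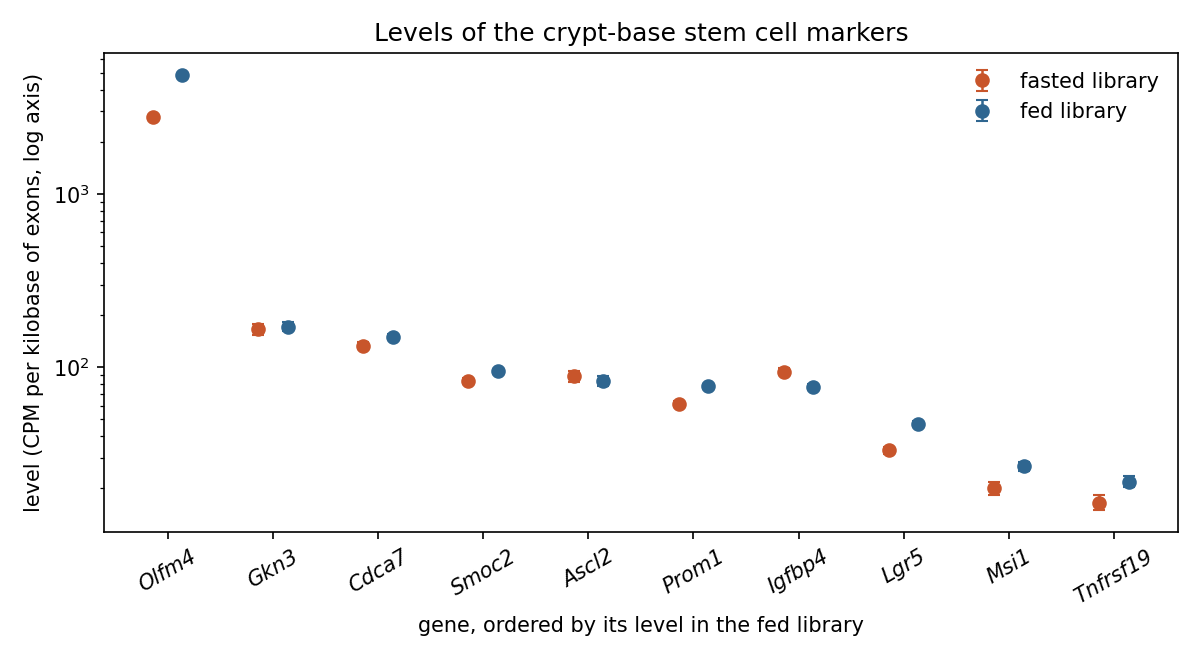
Level of each marker in CPM per kilobase of exons (log axis) in the fasted (left point) and the fed library (right point), with exact 95% Poisson intervals of the counts. Olfm4 lies at 2788 and 4852, at least 16.8 times above every other marker, and only Igfbp4 and Ascl2 have the higher point in the fasted library.

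The receptor and membrane genes all had lower levels in the fasted library. Lgr5, on the minus strand of chromosome 10 (115450311 to 115587780, GRCm38), encodes the receptor for R-spondins by which these cells are defined. It had 1709 counts in the fasted and 3381 in the fed library, which scaled to 2031 and 2845 and gave a log2 ratio of -0.49 (-0.57 to -0.40). Of all measured genes, 10.3% had a lower ratio. Tnfrsf19, known as Troy (chromosome 14, 60963875 to 61046490), is a WNT-dependent receptor of the tumour necrosis factor receptor superfamily. It had 393 fasted and 723 fed counts, a log2 ratio of -0.38 (-0.56 to -0.20), and being the least abundant marker it also had the widest interval. Prom1 (chromosome 5, 43993620 to 44102032), a membrane glycoprotein with several membrane spans that is also present in transit-amplifying cells, had 2214 fasted and 3886 fed counts and a log2 ratio of -0.31 (-0.39 to -0.24). The intervals of these 3 genes overlap only in part: those of Lgr5 and Prom1 do not meet.

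The genes of secreted proteins were the most unlike one another. Olfm4 (chromosome 14, 79984081 to 80023139), a glycoprotein of the olfactomedin family, had 41452 counts in the fasted and 100399 in the fed library, or 49258 and 84489 after scaling. Its log2 ratio was -0.78 (-0.79 to -0.76), the lowest of the 10, and 4.13% of all measured genes lay below it. Smoc2 (chromosome 17, 14279506 to 14404790), a calcium-binding matrix-associated protein, had 2910 fasted and 4595 fed counts and a log2 ratio of -0.16 (-0.23 to -0.09). Gkn3 (chromosome 6, 87383256 to 87388935), a member of the gastrokine family, had 712 fasted and 1027 fed counts, and its log2 ratio of -0.03 had an interval that held 0 (-0.17 to 0.11). Igfbp4 (chromosome 11, 99041244 to 99054392), which binds insulin-like growth factors outside the cell, went the other way. It had 2091 fasted and 2360 fed counts, which scaled to 2485 and 1986 and gave a log2 ratio of 0.32 (0.24 to 0.41), higher than that of 84.6% of all measured genes. It was the only marker whose interval lay above 0 in this scaling. Its ratio ranged from 0.29 to 0.36 over 10 other settings, some of which cannot move the ratio of a gene.

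The regulators also divided. Ascl2 (chromosome 7, 142966829 to 142969264), a WNT-responsive transcription factor that maintains the stem cell state, had 721 counts in the fasted and 947 in the fed library. Its log2 ratio was 0.10 (-0.04 to 0.25), an interval that held 0, and it turned to -0.04 after the correction for exon length described below. Cdca7 (chromosome 2, 72476159 to 72486893), a zinc finger protein that acts with a chromatin remodeller and is a target of MYC, had 2144 fasted and 3362 fed counts and a log2 ratio of -0.15 (-0.23 to -0.07). Msi1 (chromosome 5, 115429599 to 115455698), a protein that binds RNA and controls translation, had 582 fasted and 1086 fed counts and a log2 ratio of -0.40 (-0.55 to -0.26). Over all 10 markers the interval lay below 0 for 7, above 0 for 1 and held 0 for 2. Among all measured genes, most of them less abundant, 19.2% had an interval below 0 and 16.7% above.

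**Figure D2:**
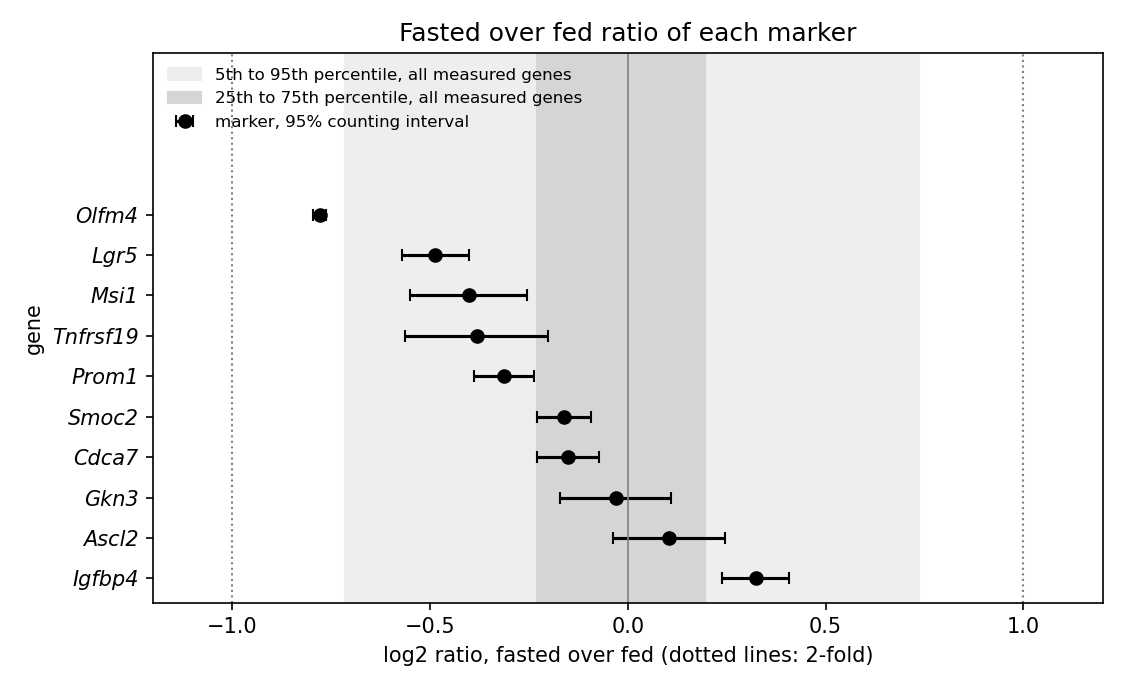
Log2 ratio of fasted over fed for each marker (points) with its 95% counting interval (bars); the grey bands hold the middle and the outer percentiles of all 12026 measured genes, and dotted lines mark 2-fold. Olfm4 at -0.78 lies just below the 5th percentile of -0.71, and Igfbp4 at 0.32 is to the right of the 75th percentile of 0.20.

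Against the whole library the markers were not rare, and most of their ratios, though not all, lay between the outer percentiles. The 5th and 95th percentiles of the log2 ratio were -0.71 and 0.74 over all measured genes, and -0.42 and 0.46 over the 2868 genes at least as abundant as the least abundant marker. Of the 10, Olfm4 lay below the first range, and Olfm4 and Lgr5 lay below the second. Summed over the 10 genes there were 54928 counts in the fasted and 121766 in the fed library, 1.09% and 1.74% of all counts, a log2 ratio of -0.65 (-0.67 to -0.64). This sum is mostly Olfm4, which made up 75.5% of it in the fasted and 82.5% in the fed library. Without Olfm4 the sums were 13476 fasted and 21367 fed counts, with a log2 ratio of -0.17 (-0.20 to -0.14).

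**Figure D3:**
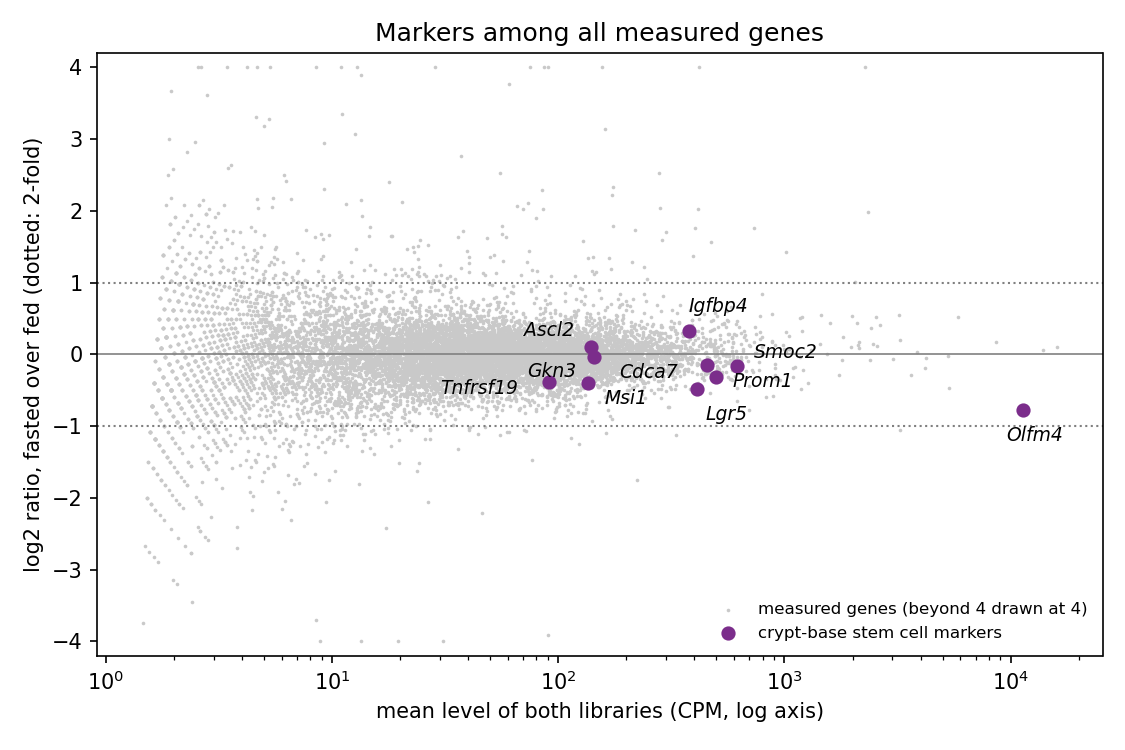
Log2 ratio of fasted over fed against the mean level of both libraries (CPM, log axis) for the 12026 measured genes (grey) and the 10 markers (purple), with values beyond 4 drawn at 4. All 10 markers lie inside the dotted 2-fold lines, and Olfm4 stands apart by its abundance.

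Ratios between markers within a library do not depend on how the libraries are scaled, though they move with the correction for exon length described below. Per read of Lgr5 there were 24.3 reads of Olfm4 in the fasted library and 29.7 in the fed library. For Igfbp4 there were 1.22 and 0.698 reads per read of Lgr5, a 1.75-fold difference, and for Ascl2 0.422 and 0.280, a 1.51-fold difference. After the length correction these were 1.66-fold and 1.26-fold. The widest divergence among the 45 pairs was that of Olfm4 against Igfbp4, with a log2 difference of -1.10 between the libraries (-1.19 to -1.02). In 36 of the 45 pairs the counting interval of this difference excluded 0, and in 27 after the length correction, where for instance Gkn3 against Lgr5 was 0.15 (-0.01 to 0.31) in place of 0.46 (0.29 to 0.62). The share was not computed for pairs of other genes, so whether the markers diverge more than other genes of like abundance was not tested. Lgr5, Msi1 and Tnfrsf19 formed a set in which no pair differed beyond counting error, as with 0.341 Msi1 reads per Lgr5 read in the fasted and 0.321 in the fed library. Smoc2, Cdca7 and Gkn3 formed another such set, for instance with a log2 difference of -0.01 (-0.11 to 0.09) for Smoc2 against Cdca7. These sets were read before the length correction and are not closed, because the interval also held 0 for Prom1 against Msi1 and Tnfrsf19 and for Ascl2 against Gkn3. After the length correction they ran into each other. The interval of Gkn3 then also held 0 against Lgr5, Msi1, Tnfrsf19 and Prom1, with 0.12 (-0.08 to 0.32) for Gkn3 against Msi1. That of Cdca7 then held 0 against Msi1, Tnfrsf19, Prom1 and Ascl2. An interval that holds 0 does not show that both genes changed alike, and the lower counts of Msi1, Tnfrsf19 and Gkn3 make theirs wide.

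**Figure D4:**
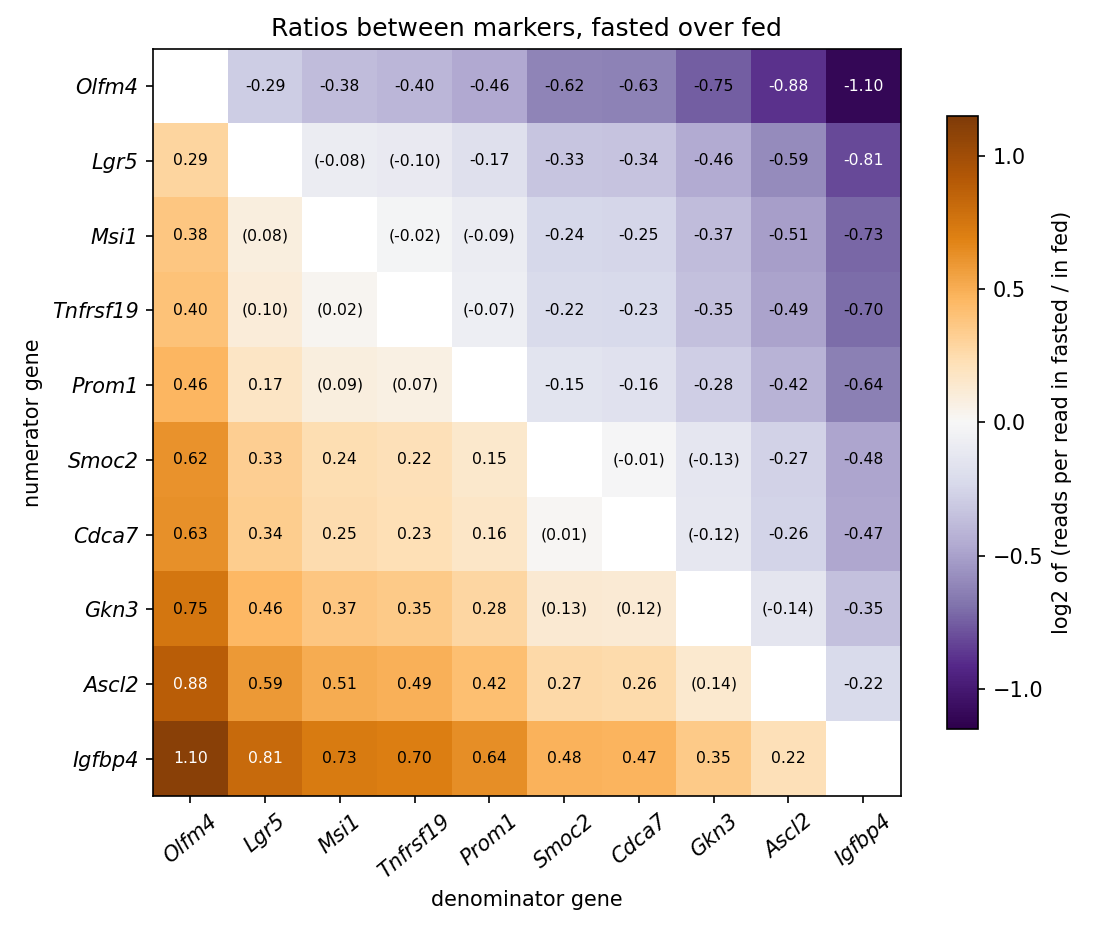
Difference between the libraries in the ratio of the row gene to the column gene, as the log2 of fasted over fed, with genes ordered from the lowest to the highest ratio; values in parentheses have a 95% counting interval that holds 0. The corner of Olfm4 against Igfbp4 reaches -1.10, while the cells among Lgr5, Msi1 and Tnfrsf19 are near 0.

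For most markers the listed relatives were nearly silent in these cells. Of 27 relatives, 21 had a summed count under 20, with at most 9 counts in the fasted and 7 in the fed library. Thus Lgr6 had 0 fasted and 1 fed counts, Prom2 had 0 in both libraries, and Ascl3 and Ascl5 had at most 1 count, as against 0 fasted and 4 fed counts for Ascl4. None of the other insulin-like growth factor binding protein genes listed exceeded 3 counts. A count of 0 allows up to 0.598 CPM in the fasted and 0.429 CPM in the fed library. In 3 families a relative was expressed beside the marker. Lgr4, a second R-spondin receptor that is present throughout the crypt, had 1755 fasted and 2445 fed counts, or 59.4 and 59.5 CPM per kilobase of exons. Which of these receptors is higher depends on the length: per kilobase of the longest transcript Lgr5 had 71.0 fasted and 101 fed, and Lgr4 had 69.1 and 69.2. Msi2 had 659 fasted and 934 fed counts, or 12.6 and 12.9 CPM per kilobase, below Msi1 by either length, and Cdca7l had 441 fasted and 631 fed counts, or 27.0 and 27.7, likewise below Cdca7. The log2 ratios of these relatives were close to 0, with 0.02 (-0.07 to 0.11) for Lgr4, -0.01 (-0.15 to 0.14) for Msi2 and -0.02 (-0.20 to 0.16) for Cdca7l. Accordingly, Lgr5 reads per Lgr4 read numbered 0.974 in the fasted and 1.38 in the fed library, a log2 difference of -0.51 (-0.63 to -0.38). Msi1 reads per Msi2 read numbered 0.883 in the fasted and 1.16 in the fed library, a log2 difference of -0.40 (-0.60 to -0.19). For Cdca7 against Cdca7l the interval held 0, at -0.13 (-0.32 to 0.06). The receptor genes Tnfrsf21 and Eda2r were measured at 48 fasted and 93 fed and at 46 fasted and 74 fed counts, and Olfm1 at 13 and 20, too few to set their ratios apart from 0.

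A further list of 34 crypt-base genes, which includes the Lgr4 described above, was described in the same way, and all 34 were measured. Of these, 24 had a negative log2 ratio, against 52.1% of all measured genes. Past 2-fold 3 of the 34 were lower and 1 was higher, against 1.91% and 2.51% of all measured genes. The median was -0.20, beside -0.24 for the 10 markers. Those past 2-fold downwards were Pdgfa, a growth factor gene, with 362 fasted and 1215 fed counts and -1.25 (-1.42 to -1.08), the urea transporter gene Slc14a1 with 347 and 1104 counts and -1.17 (-1.35 to -0.997), and Clca3b, of the calcium-activated chloride channel regulator family, with 10505 and 30672 counts and -1.05 (-1.08 to -1.02). The highest ratios after the 1 past 2-fold were those of Nrn1 (0.58) and the vitamin D receptor gene Vdr (0.33). Counts summed over the list had the opposite sign to its median, with a log2 ratio of 0.12 (0.11 to 0.14), which rests on the 1 higher gene: the other 33 summed to 45859 fasted and 85834 fed counts, a log2 ratio of -0.41 (-0.42 to -0.39). That sum in turn leans on Clca3b, with 10505 of the fasted and 30672 of the fed counts. The median log2 ratio of the 33 genes was -0.23.

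Markers of other crypt and villus cells are given beside those of the stem cells. For comparison, 2.51% of all measured genes were higher and 1.91% lower past 2-fold. Of 15 absorptive enterocyte markers 12 were higher past 2-fold and none was lower, at a median log2 ratio of 1.29 and summed levels of 3442 CPM in the fasted and 1592 CPM in the fed library. The largest of these ratios were 4.78 for the fatty acid binding protein gene Fabp1 and 2.50 for the peptide transporter gene Slc15a1. That of Slc15a1 rests on 52 fasted and 13 fed counts, with an interval of 1.60 to 3.50. Past 2-fold, goblet cells had 3 higher and 0 lower of 9 markers, a median of 0.56 and summed levels of 1258 CPM fasted and 645 CPM fed, led by Zg16 (1.63) and Tff3 (1.59). The 12 genes of cycling cells had none past 2-fold and a median of -0.36, with 2806 CPM in the fasted and 3736 CPM in the fed library. They did not go 1 way: 8 had a negative and 4 a positive log2 ratio, the highest at 0.12. The lowest were Mki67 (-0.78) and Ube2c (-0.58). Paneth cells, the neighbours of the stem cells, had 1006 CPM fasted and 1165 CPM fed over 10 markers, with a median of -0.31, 1 higher (Mmp7, 2.07) and 0 lower. The lowest was Defa17 at -0.96 (-1.78 to -0.20), with 20 fasted and 55 fed counts. Tuft and enteroendocrine markers summed to 10.4 and 29.3 CPM in the fasted and 14.0 and 30.1 CPM in the fed library, with medians of -0.62 over 3 measured genes and 0.16 over 5. Both medians rest on few counts: the tuft list summed to 52 fasted and 98 fed counts, the enteroendocrine list to 147 and 210. The intervals of the summed log2 ratios held 0, from -0.93 to 0.08 and from -0.33 to 0.29. Reserve stem cell markers had a median of -0.15 over 4 measured genes, with 224 CPM fasted and 215 CPM fed. Of these genes 2 had a negative and 2 a positive log2 ratio. The log2 ratio of the list's summed counts had the opposite sign to the median, with an interval that held 0, at 0.08 (-0.03 to 0.19). The 7 immune markers summed to 1.99 CPM fasted and 5.01 CPM fed, with Csf1r at 0 counts in both libraries, and the 1 measured, Cd68, was lower at 6 fasted and 25 fed counts. The 9 markers of stroma and endothelium summed to 1.39 and 2.29 CPM, with Col3a1, Pdgfra and Des at 0 in both, and 4 of 5 red blood cell genes were at 0 in both. The part of the enterocyte, goblet and cycling genes in the lower levels of the stem cell markers was not tested.

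**Figure D5:**
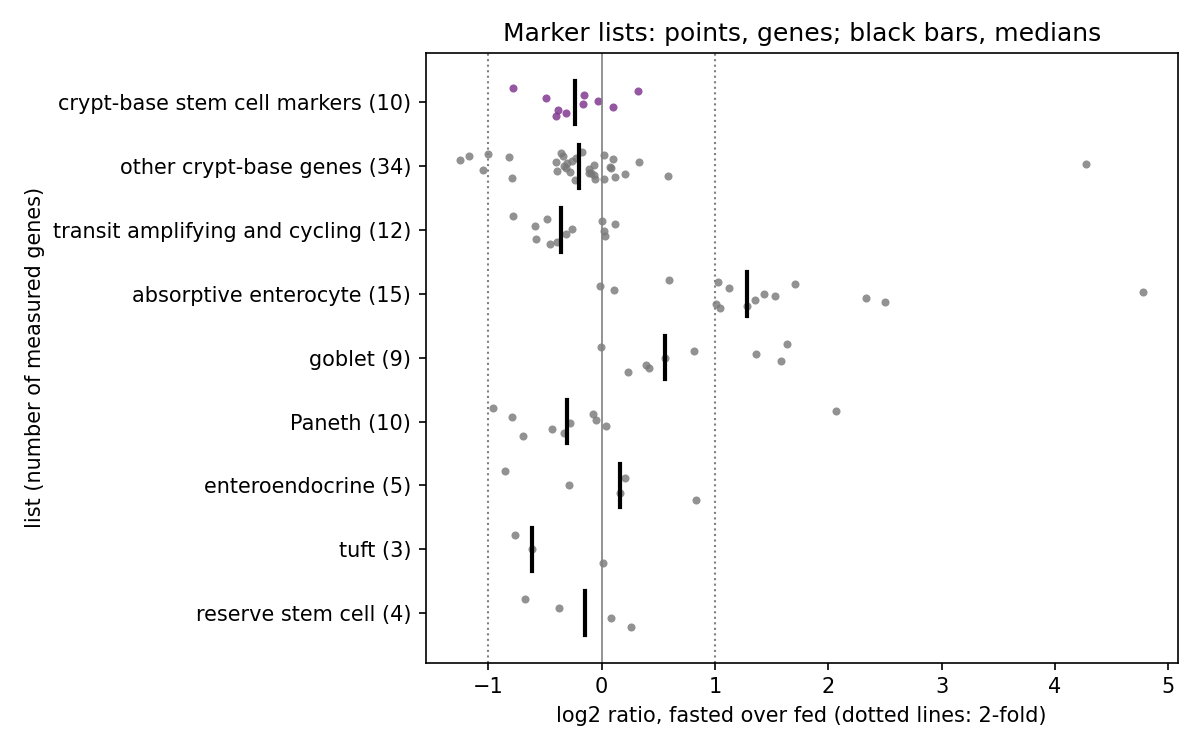
Log2 ratio of fasted over fed of the measured genes of each list (points) with the list median (black bar); the number of measured genes is in parentheses and dotted lines mark 2-fold. The 10 stem cell markers (purple) have a median of -0.24, next to -0.20 for the other crypt-base genes, while the absorptive enterocyte genes have a median of 1.29.

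In structure the markers resembled the measured genes at large. Their exons summed to between 856 and 10264 bases (median 4577, against 4372 for the measured genes with an annotated length), and the longest transcripts had a median GC content of 49.8%, against 49.5%. Length matters because the log2 ratio fell with it over all genes, from 0.15 as the median of the shortest genes to -0.14 for the longest, when genes were split into 10 bins of exon length. Lgr5 has the most exon sequence of the 10 and Gkn3 the least. When the running median at each gene's length was subtracted, the ratio of Lgr5 became -0.37, that of Gkn3 -0.22, that of Prom1 -0.23 and that of Smoc2 -0.09, while Olfm4 stayed the lowest at -0.83 and Igfbp4 the highest at 0.36. Few counts fell on genes whose exons overlap those of a marker. The exons of Olfm4 share 153 bases with the gene Gm6999 (3 fasted and 2 fed counts), and those of Prom1 share 424 bases with the antisense gene Gm16401 (17 and 26 counts). On the strand opposite to Lgr5 lies A930009A15Rik, with no shared exon bases and 133 fasted and 223 fed counts. Between 0% and 5.10% of each marker's 50-base words also occur in transcripts of other genes.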

How the data were processed

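Gene expression was measured in 1 fasted and 1 fed library of sorted intestinal stem cells, prepared from 1 ug of total RNA with the TruSeq kit per the labels' protocols. The authors deposited whole-number counts per Ensembl gene, and a table of normalised signal that equals, within 0.017, those counts divided by 1 factor per library (0.842 fasted, 1.19 fed). FastQC, STAR, HTSeq and DESeq and the builds GRCm38 and mm10 are named per the submitters' processing notes. The sources used here give no versions, annotation or strand setting, so reads of a gene and its antisense partner cannot be told apart. The libraries held 5020056 (fasted) and 6985316 (fed) counts, so that 1 count equalled 0.199 and 0.143 CPM.

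Of 45706 gene IDs, 45143 matched GENCODE release M21 (GRCm38), the source of symbols, coordinates and exon lengths. Promoters came from RefSeq (GRCm38.p6). Size factors were medians of ratios, while CPM used library totals, which shifts log2 ratios by -0.02. Intervals were 95% Clopper-Pearson for ratios between libraries, Poisson for levels and log-scale Wald for ratios between genes, and they cover counting error only. The threshold was 2-fold with an interval that excludes 1. A count of 0 was taken to allow up to 3 counts. Alternatives used edgeR 4.0.16 for TMM and upper-quartile factors, library totals with and without Olfm4, the deposited signal, exon length (running median over 1001 genes), pseudocounts, filters and thresholds; the length correction of ratios between markers and the longest-transcript levels of relatives were added after seeing the data. The procedure was run on simulated Poisson counts, with planted changes larger than that of any marker. Such counts hold no variation between mice, so the run cannot judge the differences between these libraries. The rule for named genes took all 10 markers, their listed relatives, the 3 highest and 3 lowest of the other crypt-base genes with those past the threshold, and up to 2 genes of each marker list. A few genes of these lists are not reported here by name. Members and lists were chosen with earlier results of these data known. Computations used Python 3.11.15, scipy 1.17.1 and R 4.3.3.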

Additional observations from a re-analysis of the deposited data

How the results depend on the processing

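None of the 10 markers passed the 2-fold threshold under any other scaling, filter or pseudocount, at 3-fold, with an interval bound of at least 2-fold or without the interval condition, and 1, Olfm4, passed at 1.5-fold. The number with a negative log2 ratio was 8 in every setting except the exon length correction, which made it 9 through Ascl2. Their median log2 ratio of -0.24 lay between -0.27 and -0.21 under the scalings and the length correction. It ranged from -0.31 to -0.16 when each marker in turn was left out. The log2 ratio of their summed counts, another measure than the median, was -0.65, and -0.17 without Olfm4. Over 10 alternatives each, the ratio of Olfm4 ranged from -0.83 to -0.75 and that of Lgr5 from -0.52 to -0.37. Among these alternatives, the filters and the deposited signal leave such a ratio all but unchanged by construction. Ranked by CPM without length, 5 markers in place of 3 had another rank in the fasted than in the fed library. Of all measured genes, 302 were higher and 230 lower. A minimum of 5 CPM left 176 higher and 111 lower, a threshold of 1.5-fold gave 614 higher and 607 lower, 3-fold gave 124 higher and 88 lower, and the interval bound 103 higher and 36 lower, as looser or stricter rules must. No paired analysis was possible because each group has 1 library. At this depth the counting intervals of Ascl2 and Gkn3 held 0 in the main setting. After the length correction their ratios were -0.04 and -0.22, for which no intervals are given here. Variation between mice is unknown.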
